A study of Mus musculus with 8 samples.

Results

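The genes described here are 37 genes of DNA replication and cell division. They are S phase and mitosis genes chosen by name, with earlier results of these data known. They were found by their Ensembl identifiers among the 46078 identifiers counted in each library. All 37 passed the filter on low counts that left 14736 genes for testing. Polyadenylated RNA was sequenced in bulk from infarcts of 8 wild-type male C57BL/6J mice aged 18 months. All had a DH stroke, a permanent occlusion of the distal middle cerebral artery followed by hypoxia, and no group was without stroke. From week 1 they were injected under the skin 3 times per week for 6 weeks with phosphate-buffered saline (vehicle, n = 4) or with 4 g/kg 2-hydroxypropyl-β-cyclodextrin (HPβCD, n = 4), a cyclic sugar that carries cholesterol. Infarcts were removed 7 weeks after stroke, by eye, so that the amount of neighbouring brain in a piece could vary. The question asked of the proliferation genes was whether their transcripts in the infarct differed between the vehicle and HPβCD groups.

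A cell loads the MCM helicase onto its replication origins before S phase. On entering S phase it opens the DNA with Cdc45 and GINS and copies it with polymerases held by the sliding clamp PCNA. Ribonucleotide reductase, thymidylate synthase and thymidine kinase supply the nucleotides. Entry into mitosis is driven by Cdk1 with cyclins A and B, after which Aurora and Polo kinases, kinetochore proteins and kinesins build the spindle, and the anaphase-promoting complex (APC/C) ends the division by destroying the cyclins. Transcripts of S phase genes are switched on largely by E2F factors. Those of mitosis genes are held down in resting cells by the DREAM complex, which binds promoters at a short element called CHR, often beside CCAAT boxes bound by NF-Y. In an injured brain the dividing cells are mostly glia, immune cells and stromal cells, whereas mature neurons do not divide. In bulk tissue, fewer cells of a type and less RNA per cell cannot be told apart.

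The libraries held between 16.6 M and 32.9 M gene counts, and the largest was that of vehicle animal 2. Between 26.6% of reads (HPβCD animal 3) and 36.6% (vehicle animal 3) were assigned to no gene. The summed levels of cell type marker genes differed between the pieces. The summed level of 9 neuron markers in CPM (counts scaled to a library of 1 M) reached 6076 in the infarct of vehicle animal 3 and 1032 in that of animal 1, against 8.64 to 86.8 CPM in the other 6 animals, and all 9 were highest in vehicle animal 3. Macrophage markers (6 genes) summed to 9675 to 21564 CPM in vehicle infarcts and 26502 to 32541 CPM in HPβCD infarcts, and fibroblast markers (5 genes) to 2102 to 4668 CPM and 6688 to 7520 CPM, in both cases without overlap. Of the macrophage genes 5 had a log2 fold change above 0 and *Mrc1* was at -0.01, and all 5 fibroblast genes were above 0. Taken singly, *Adgre1*, *Trem2*, *Mrc1*, *Dcn* and *Lum* overlapped between groups. Plasma cell markers (6 genes) summed to 1235 to 2723 CPM with vehicle and 336 to 591 CPM with HPβCD, and these sums did not overlap either. *Jchain* alone measured 858 to 2184 CPM with vehicle and 41.0 to 229 CPM with HPβCD. Of the plasma cell genes 5 had a log2 fold change below 0 and *Sdc1* was above, at 0.41. *Xbp1* (-0.28) and *Sdc1* overlapped between groups. No marker of these 4 lists was at 0 in every library.

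Promoter sequence was compared first, for an S phase set (14 genes) and a mitosis set (23 genes) that are described apart below. RefSeq promoters on build GRCm38.p6 were matched by symbol for 30 of the 37 genes. In the 250 bases before the start, both strands were searched for CHR (TTTGAA or TTTAAA), for the CCAAT box (CCAAT) and for E2F sites (TTTCCCGC, TTTGGCGC, TTTCGCGC or TTTGCCGC). Of the 18 mitosis genes with a promoter, 12 (66.7%) held a CHR and 16 (88.9%) a CCAAT box, and 11 (61.1%) held both. Among all 27025 promoters of the table these shares were 28.1%, 37.5% and 11.2%. E2F letters were found in 4 of the 12 S phase promoters (33.3%) and in 1 of the 18 mitosis promoters (5.56%), against 2.16% of all promoters. Of the 12 S phase promoters, 4 (33.3%) held a CHR and 9 (75%) a CCAAT box. The matched starts of *Mcm7* and *Cdc6*, both with E2F letters, lie 539 and 350 bases from the GENCODE start. A match describes these letters only and is not evidence that a factor was bound. A link between the letters and the expression values was not tested.

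The promoters of *Mcm2* and *Mcm3*, S phase genes whose groups did not overlap, are shown beside those of *Mki67*, *Top2a* and *Kif11*, mitosis genes that were highest in a single HPβCD animal. They lie before the start at chr6:88898781-88899030, chr1:20820313-20820562, chr7:135716380-135716629 and chr11:99024190-99024439 (all minus strand) and chr19:37376132-37376381 (plus strand) on GRCm38.p6. Capitals mark CHR and CCAAT letters, which appear as TTCAAA and ATTGG where they lie on the other strand. The *Mcm2* and *Mcm3* promoters held no E2F letters, and that of *Mcm2* held both CHR and CCAAT letters.
Mcm2: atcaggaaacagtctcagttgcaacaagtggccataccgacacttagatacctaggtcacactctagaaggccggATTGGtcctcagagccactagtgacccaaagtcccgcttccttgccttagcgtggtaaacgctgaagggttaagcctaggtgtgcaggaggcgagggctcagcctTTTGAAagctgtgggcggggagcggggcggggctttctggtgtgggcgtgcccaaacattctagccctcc
Mcm3: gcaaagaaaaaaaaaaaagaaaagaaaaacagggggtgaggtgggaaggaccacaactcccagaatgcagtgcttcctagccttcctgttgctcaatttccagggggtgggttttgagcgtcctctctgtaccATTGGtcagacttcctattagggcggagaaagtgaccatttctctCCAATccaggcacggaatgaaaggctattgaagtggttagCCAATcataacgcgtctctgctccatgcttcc
Mki67: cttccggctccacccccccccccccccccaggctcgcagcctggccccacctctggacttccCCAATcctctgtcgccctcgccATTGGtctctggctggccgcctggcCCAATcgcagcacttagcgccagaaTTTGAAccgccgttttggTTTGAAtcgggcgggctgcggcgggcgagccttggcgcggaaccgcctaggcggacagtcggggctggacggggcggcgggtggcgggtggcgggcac
Top2a: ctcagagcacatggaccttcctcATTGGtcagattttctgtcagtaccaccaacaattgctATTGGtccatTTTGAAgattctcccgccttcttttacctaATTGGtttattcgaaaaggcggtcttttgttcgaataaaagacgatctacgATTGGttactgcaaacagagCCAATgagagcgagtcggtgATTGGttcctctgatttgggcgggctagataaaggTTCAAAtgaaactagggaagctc
Kif11: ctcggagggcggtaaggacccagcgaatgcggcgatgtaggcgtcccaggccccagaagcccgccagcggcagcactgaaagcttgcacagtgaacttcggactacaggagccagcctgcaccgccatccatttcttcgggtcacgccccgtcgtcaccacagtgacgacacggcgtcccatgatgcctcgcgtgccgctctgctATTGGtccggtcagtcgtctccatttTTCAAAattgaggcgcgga

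None of the 37 genes passed the test between vehicle and HPβCD infarcts (edgeR quasi-likelihood test, Benjamini-Hochberg adjusted p under 0.05 over all genes tested), where 1.95% of all genes did (287 of 14736). The count over all genes itself ranged from 0 to 629 when each animal was left out. An adjusted p above the threshold does not show that a gene did not differ. The smallest adjusted p among them in edgeR was 0.0802, for *Pcna*. At an unadjusted p under 0.05 in edgeR, 3 were higher in HPβCD (*Pcna*, *Mcm2*, *Mcm3*) and 1 was lower (*Stmn1*). Over all genes, 11.8% were higher and 16% lower at that level. DESeq2 called 2 of the 37, *Pcna* higher and *Stmn1* lower, at a background of 17.5% of genes called, and limma-voom with sample quality weights called 2, *Pcna* and *Mcm2*, both higher, at a background of 22.1%. Both shares of the list were below those of all genes.

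The fitted log2 fold change was above 0 for 32 of the 37 genes and below 0 for 5, where it was above 0 for 45.9% of all genes. Their median was 0.36 on the log2 scale, against -0.05 for all genes tested. That count rested on 1 infarct. HPβCD animal 3 had the highest level of the 8 animals in 28 of the 37 genes, although it was the highest in only 12.3% of all genes. Without it, 14 of the 37 log2 fold changes were above 0 and 23 below, against a background of again 45.9% above 0, and the median was -0.07. Vehicle animal 3 in turn was the lowest in 22 of the 37 genes, and in 27.6% of all genes.

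**Figure D1:**
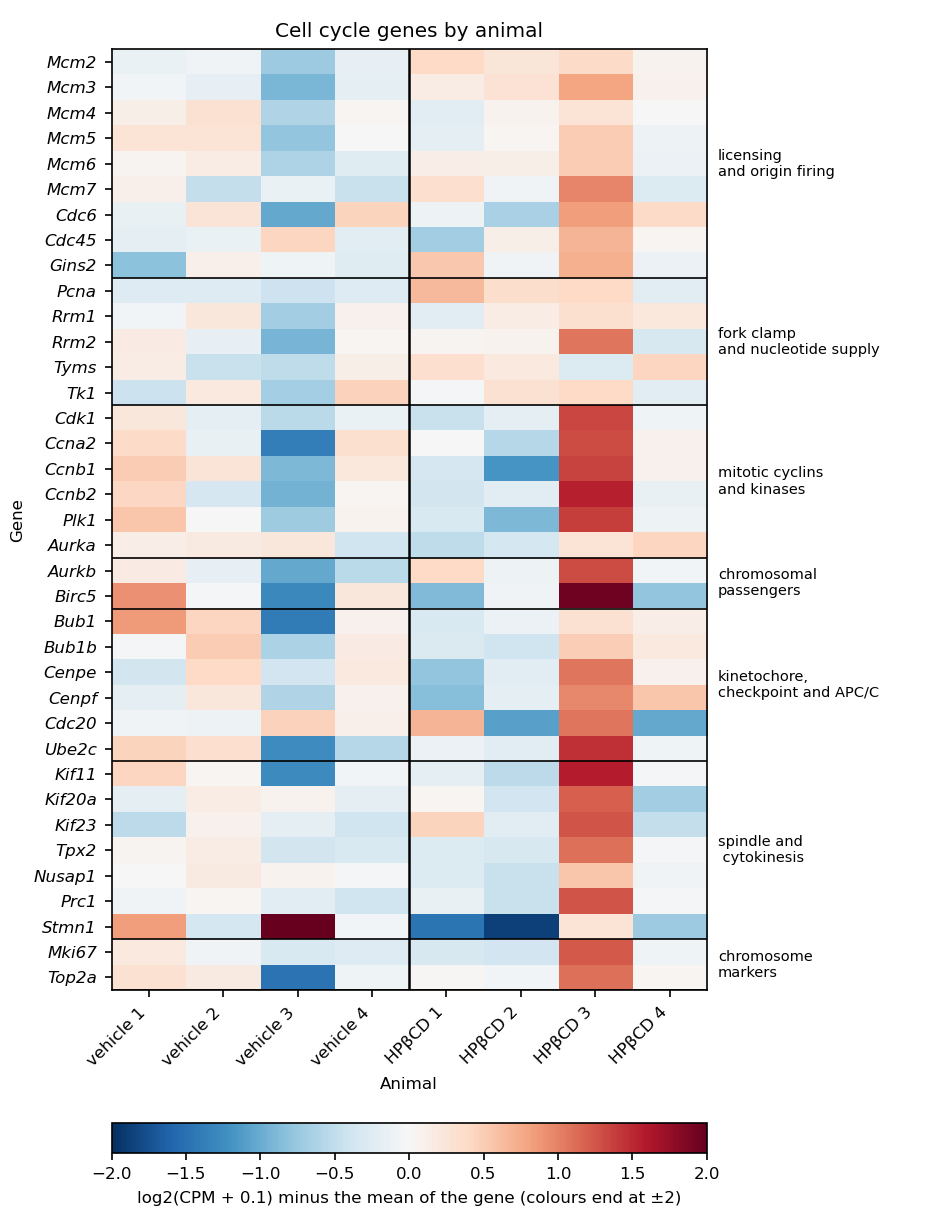
Each row is a gene, grouped by role, and each column an animal, with the 4 vehicle animals left of the vertical line. Colour is log2(CPM + 0.1) minus the mean of the gene over 8 animals, and it ends at ±2. HPβCD animal 3 is the highest of the 8 in 28 of 37 rows, and vehicle animal 3 is the lowest in 22.

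The S phase set and the mitosis set parted when HPβCD animal 3 was left out. All 14 S phase genes had a log2 fold change above 0 with 8 animals (median 0.34), and 10 of 14 did without HPβCD animal 3 (median 0.16). In the mitosis set, 18 of 23 were above 0 with 8 animals (median 0.36), and 4 of 23 were without it (median -0.14). HPβCD animal 3 exceeded the median of the other 3 HPβCD animals by a median ratio of 2.90 in the mitosis set (range 1.39 to 7.73) and of 1.44 in the S phase set (range 0.643 to 2.07). Over all genes that ratio had a median of 1.00, and it was above 2 for 6.87% of genes, for 19 of 23 mitosis genes and for 2 of 14 S phase genes.

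**Figure D2:**
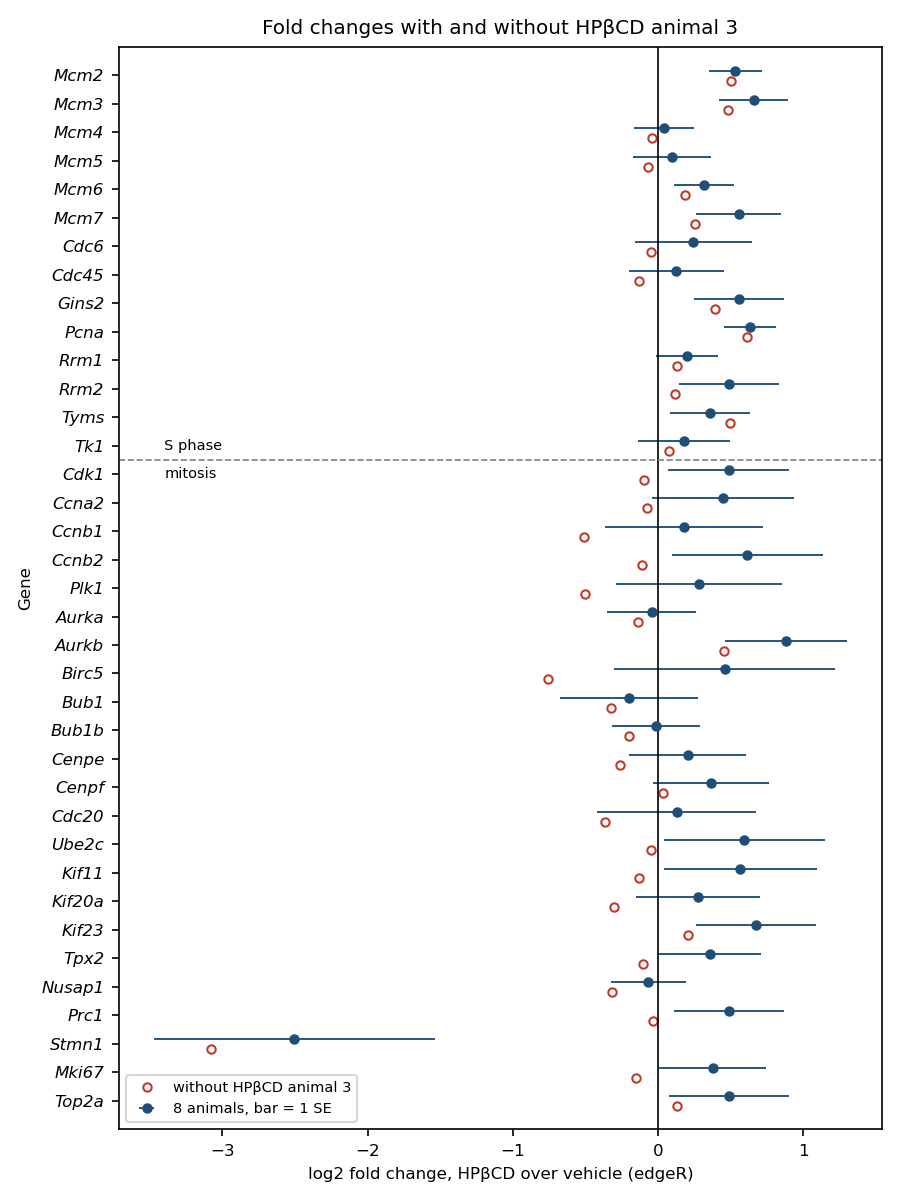
The log2 fold change of each gene (HPβCD over vehicle, edgeR) is plotted from 8 animals (filled, bar of 1 SE) and without HPβCD animal 3 (open), S phase genes above the dashed line and mitosis genes below it. Without that animal 10 of 14 S phase genes and 4 of 23 mitosis genes stay above 0, and *Pcna* moves from 0.63 to 0.61 while *Birc5* moves from 0.46 to -0.76.

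The licensing and origin firing genes (9 genes) include the 6 subunits of the MCM helicase. Groups did not overlap for 2 of the 9, *Mcm2* and *Mcm3*, both higher in HPβCD, a pattern that 8.77% of all genes had. *Mcm2* (chromosome 6, 88883474 to 88898780, GRCm38) measured 16.3, 17.0, 10.7 and 16 CPM in vehicle animals 1 to 4 and 23.7, 21.2, 23.3 and 18.7 CPM in HPβCD animals 1 to 4. Every HPβCD infarct was above every vehicle infarct, and vehicle animal 3 was the lowest. Group means were 15 ± 2.90 and 21.7 ± 2.29 CPM (SD, 4 animals each), which gave a difference of 0.53 in log2 (SE 0.18, adjusted p = 0.106 in edgeR). It was 0.50 without HPβCD animal 3. *Mcm3* (chromosome 1, 20802968 to 20820312) measured 15.6, 14.5, 8.53 and 14.1 CPM in vehicle animals and 17.9, 19.9, 28.1 and 17.3 CPM in HPβCD animals. Its groups did not overlap either, with HPβCD animal 3 highest and vehicle animal 3 lowest. Its log2 fold change was 0.66 (SE 0.24, adjusted p = 0.119 in edgeR), and 0.48 without HPβCD animal 3.

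The most abundant helicase transcripts showed smaller differences. *Mcm6* measured 34.1, 36.5, 21.4 and 27.9 CPM in vehicle animals and 36.0, 35.7, 47.1 and 30.4 CPM in HPβCD animals, and the groups overlapped. Its log2 fold change was 0.31 (SE 0.21, adjusted p = 0.359 in edgeR). *Mcm4* measured 28.5, 32.5, 17.3 and 26.9 CPM in vehicle animals and 22.7, 27.6, 31.8 and 26.1 CPM in HPβCD animals, with its highest value in a vehicle infarct, and a log2 fold change of 0.04 (SE 0.21, adjusted p = 0.922 in edgeR). The other helicase subunits had log2 fold changes of 0.09 (*Mcm5*) and 0.55 (*Mcm7*). *Cdc6*, which loads the helicase, had 0.24. *Cdc45* and *Gins2*, which start the loaded helicase, had 0.12 and 0.55, and 67.3% of the *Gins2* exons lie opposite exons of another gene, so that without the strand setting of the counting its reads are uncertain. Subunits of the same helicase thus spread from 0.04 to 0.66, with SEs of 0.18 to 0.29.

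The fork clamp and nucleotide supply genes (5 genes) hold the most abundant transcript of the list. *Pcna*, the sliding clamp, which also serves in DNA repair (chromosome 2, 132249162 to 132253314), measured 80.2, 79.8, 72.1 and 79.9 CPM in vehicle animals and 151, 123, 127 and 82.8 CPM in HPβCD animals. The vehicle infarcts lay close together, 3 of the 4 HPβCD infarcts were far above them, and HPβCD animal 4 was just above the highest vehicle value. Group means were 78.0 ± 3.94 and 121 ± 28.1 CPM (SD, 4 animals each), and the log2 fold change was 0.63 (SE 0.18, unadjusted p = 0.00676 and adjusted p = 0.0802 in edgeR). The adjusted p was 0.0197 in DESeq2, 0.0154 in limma-voom, and 0.0354 in edgeR without HPβCD animal 4. Without HPβCD animal 3 the log2 fold change was 0.61, without vehicle animal 3 it was 0.60, and without both 0.57. *Pcna* has annotated pseudogenes, and reads that also align to them were not counted.

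Ribonucleotide reductase makes deoxynucleotides from a large subunit, *Rrm1*, and a small one, *Rrm2*. *Rrm1* measured 44.7, 54.2, 28.6 and 49.3 CPM in vehicle animals and 39.9, 51.4, 57.9 and 53.7 CPM in HPβCD animals. The groups overlapped, with vehicle animal 3 lowest, and the log2 fold change was 0.20 (SE 0.21, adjusted p = 0.592 in edgeR). *Rrm2* had a log2 fold change of 0.49 with 8 animals and 0.11 without HPβCD animal 3. *Tyms* (thymidylate synthase) and *Tk1* (thymidine kinase) had 0.36 and 0.18. *Tyms* was the exception of the S phase set in HPβCD animal 3, where at 1.66 CPM it was below the other HPβCD animals (2.33 to 2.78 CPM).

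Groups did not overlap, with HPβCD higher, for 3 of the 37 genes, *Pcna*, *Mcm2* and *Mcm3*, where 8.77% of all genes had that pattern. The share of the 37 was thus not above that of all genes. None of the 37 had the opposite pattern, which 8.03% of all genes showed.

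**Figure D3:**
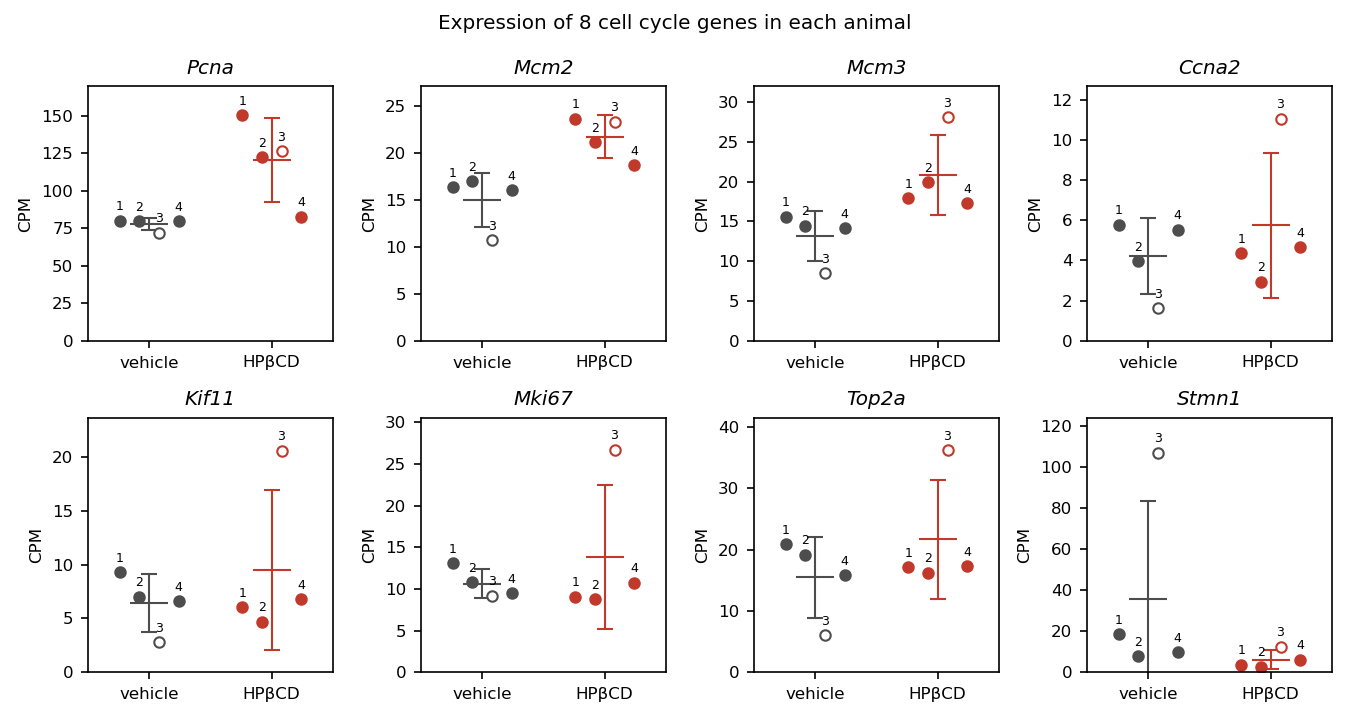
CPM of 8 genes in each animal (point labelled with the animal number, open for animals numbered 3), with the mean and SD of each group of 4. The lower SD bar of vehicle *Stmn1* is cut at 0. *Pcna*, *Mcm2* and *Mcm3* do not overlap between groups, whereas the upper value of *Ccna2*, *Kif11*, *Mki67* and *Top2a* is HPβCD animal 3 alone.

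Among the mitotic cyclins and kinases (6 genes) no gene had groups that did not overlap. Over all genes 8.77% were higher and 8.03% lower without overlap, and 6 genes are too few to be told apart from these shares. Without HPβCD animal 3 all 6 log2 fold changes were below 0, where 45.9% of all genes were above 0. *Ccna2* encodes cyclin A2, which acts from S phase into mitosis. It measured 5.77, 3.96, 1.63 and 5.54 CPM in vehicle animals and 4.37, 2.94, 11.1 and 4.66 CPM in HPβCD animals. HPβCD animal 3 was far above all others, and the remaining 3 HPβCD values lay inside the vehicle range. Its log2 fold change was 0.45 (SE 0.49, adjusted p = 0.603 in edgeR), and -0.08 without that animal. *Cdk1*, the kinase that drives mitosis, measured 4.19, 3.10, 2.42 and 3.23 CPM in vehicle animals and 2.59, 3.12, 9.07 and 3.33 CPM in HPβCD animals. Here too only HPβCD animal 3 was above the vehicle range, and the log2 fold change was 0.49 (SE 0.42, adjusted p = 0.491 in edgeR), or -0.10 without it. Of its partner cyclins, *Ccnb1* had 0.18 and *Ccnb2* 0.61, which became -0.51 and -0.11. The kinases *Plk1* and *Aurka*, needed for centrosome maturation and the spindle, had 0.28 and -0.04. *Aurka* was the only gene of this group whose highest value was not in HPβCD animal 3.

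The chromosomal passengers (2 genes) correct faulty attachments of chromosomes to the spindle. *Aurkb*, their kinase, measured 1.64, 1.29, 0.666 and 0.968 CPM in vehicle animals and 1.95, 1.35, 3.76 and 1.39 CPM in HPβCD animals. It overlapped between groups through vehicle animal 1, and its log2 fold change of 0.88 (SE 0.42, adjusted p = 0.211 in edgeR) was the highest of the list, and it was 0.45 without HPβCD animal 3. *Birc5* (survivin) measured 2.04, 1.00, 0.363 and 1.24 CPM in vehicle animals and 0.517, 0.980, 4.29 and 0.555 CPM in HPβCD animals. Outside HPβCD animal 3 all HPβCD values were below 3 of the 4 vehicle values, and the log2 fold change of 0.46 (SE 0.76, adjusted p = 0.742 in edgeR) turned to -0.76 without that animal. The ratio of HPβCD animal 3 to the median of the other HPβCD animals, 7.73, was the highest of the 37 genes.

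Kinetochore, checkpoint and APC/C genes (6 genes) had log2 fold changes between -0.20 and 0.59, and 1 of 6 was above 0 without HPβCD animal 3. *Bub1b* (BubR1), a checkpoint kinase that delays anaphase, measured 4.58, 6.74, 3.03 and 5.32 CPM in vehicle animals and 3.85, 3.55, 6.65 and 5.44 CPM in HPβCD animals. The ranges nearly coincided, and the log2 fold change was -0.02 (SE 0.30, adjusted p = 0.979 in edgeR). *Cenpe*, a kinesin of the kinetochore, measured 2.94, 5.05, 2.91 and 4.41 CPM in vehicle animals and 2.18, 3.31, 8.10 and 4.05 CPM in HPβCD animals, with both the lowest and the highest value in the HPβCD group and a log2 fold change of 0.20 (SE 0.40, adjusted p = 0.789 in edgeR). *Cenpf*, another kinetochore protein, had 0.36, and *Bub1*, whose lowest value rested on 4 counts in vehicle animal 3, had -0.20. *Cdc20* and *Ube2c*, an activator and an ubiquitin-conjugating enzyme of the APC/C, had 0.13 and 0.59.

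The spindle and cytokinesis genes (7 genes) hold *Stmn1*, which had the lowest log2 fold change of the list, and 6 genes that were highest in HPβCD animal 3. *Kif11* (Eg5), the kinesin that separates the spindle poles, measured 9.28, 7.03, 2.78 and 6.62 CPM in vehicle animals and 6.03, 4.72, 20.6 and 6.77 CPM in HPβCD animals. HPβCD animal 3 (95% Poisson interval 18.5 to 22.7 CPM, counting error only) was above every other animal, and vehicle animal 3 (2.04 to 3.71 CPM) was below. The log2 fold change was 0.57 (SE 0.53, adjusted p = 0.533 in edgeR), and -0.13 without HPβCD animal 3. The other kinesins and spindle proteins, *Kif20a*, *Kif23*, *Tpx2*, *Nusap1* and *Prc1*, had log2 fold changes of 0.27, 0.67, 0.35, -0.07 and 0.49. All 5 were highest in HPβCD animal 3, and only *Kif23* stayed above 0 without it, at 0.21.

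*Stmn1* went the other way. It encodes stathmin, which takes microtubules apart and is also abundant in neurons. It measured 18.4, 8.01, 107 and 9.90 CPM in vehicle animals and 3.68, 2.76, 12.5 and 6.16 CPM in HPβCD animals. Vehicle animal 3 was far above the rest, and the groups overlapped through HPβCD animal 3. Its log2 fold change was -2.51 (SE 0.97, unadjusted p = 0.0336 and adjusted p = 0.146 in edgeR) and -2.48 in DESeq2, where its adjusted p was 0.0130. Leaving out vehicle animal 3 gave -0.94, and leaving out vehicle animals 1 and 3 together gave -0.49. The neuron markers were highest in the same infarct, at 6076 CPM in all against 8.64 to 86.8 CPM in HPβCD infarcts. Their part in the *Stmn1* difference was not tested.

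The chromosome markers (2 genes) are the transcripts most used to count dividing cells. *Mki67*, which coats mitotic chromosomes and encodes the antigen Ki-67, measured 13.1, 10.8, 9.20 and 9.52 CPM in vehicle animals and 9.08, 8.76, 26.7 and 10.8 CPM in HPβCD animals. Apart from HPβCD animal 3, the 7 animals lay between 8.76 and 13.1 CPM. The 498 counts behind that animal gave a 95% Poisson interval of 24.4 to 29.2 CPM, and that of the next highest, vehicle animal 1, was 11.4 to 14.9 CPM. The log2 fold change was 0.38 (SE 0.37, adjusted p = 0.552 in edgeR), and -0.16 without HPβCD animal 3. *Top2a*, the topoisomerase that untangles replicated DNA, measured 20.9, 19.2, 6.05 and 15.9 CPM in vehicle animals and 17.1, 16.2, 36.3 and 17.3 CPM in HPβCD animals. It was highest in HPβCD animal 3 and lowest in vehicle animal 3, with a log2 fold change of 0.49 (SE 0.41, adjusted p = 0.483 in edgeR), and 0.13 without the former.

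Levels were compared between genes per kilobase of annotated exon (mean CPM per kilobase over 8 animals). *Pcna* led at 41.4, with *Mcm4* at 7.43 and *Mcm6* at 7.21. *Stmn1* had a mean of 10.9 that was carried by vehicle animal 3, at 18.6 in vehicle and 3.26 in HPβCD infarcts, and in the latter it was below *Mcm6* (8.00) and *Mcm4* (7.54). *Mki67* and *Ccna2* were each at 1.22, and *Cenpf* and *Bub1* were last at 0.202 each. Reads of *Kif20a*, *Ube2c*, *Ccna2* and *Prc1* are uncertain in the way of *Gins2*, since 29.3%, 22.8%, 12.5% and 11.1% of their exons lie opposite other exons, and *Tyms*, *Ccnb1*, *Ccnb2* and *Stmn1* have annotated related copies. The S phase genes summed to 192 to 281 CPM with vehicle and 273 to 398 CPM with HPβCD. The mitosis genes without *Stmn1* summed to 51.5 to 94.4 CPM in vehicle infarcts and to 71.8, 65.6, 187 and 81.9 CPM in HPβCD animals 1 to 4. The summed counts thus overlapped in both sets, and outside HPβCD animal 3 the mitosis sum of every HPβCD infarct was inside the vehicle range.

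A score per animal, the mean over genes of log2 CPM centred on each gene, gave the same picture. In the S phase set it was -0.09, -0.01, -0.55 and -0.04 in vehicle animals and 0.08, 0.08, 0.54 and -0.01 in HPβCD animals. HPβCD animals 1, 2 and 4 were thus near 0, and each group had 1 infarct apart, both numbered 3. In the mitosis set without *Stmn1* it was 0.19, 0.10, -0.64 and -0.08 in vehicle animals and -0.22, -0.39, 1.14 and -0.10 in HPβCD animals. HPβCD animals 1, 2 and 4 were below vehicle animals 1, 2 and 4 in this set. With both animals numbered 3 left out, a setting chosen after the data were seen, 10 of the 37 log2 fold changes were above 0. The median of the 37 was -0.20, against -0.01 for all genes tested in that setting.

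**Figure D4:**
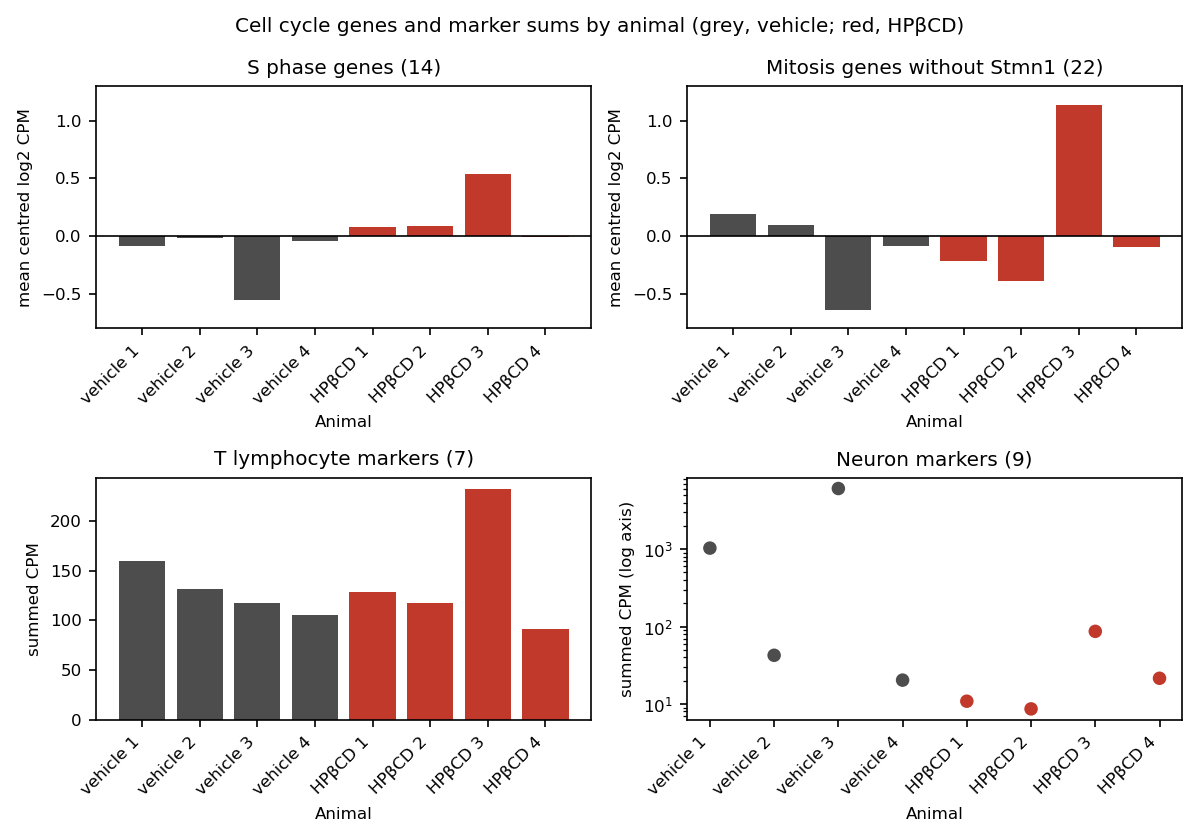
Upper panels show the mean centred log2 CPM of S phase genes and of mitosis genes without *Stmn1* in each animal, and lower panels the summed CPM of T lymphocyte markers and, on a log axis, of neuron markers. HPβCD animal 3 is the highest in the first 3 panels, at 0.54, 1.14 and 232 CPM, and vehicle animal 3 is the highest for neuron markers at 6076 CPM.

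Marker levels of other cell types also differed in the infarct of HPβCD animal 3, where 12.3% of all genes had their highest value. Of 7 T lymphocyte markers 6 were highest there, and their sum was 232 CPM against 91.6 to 129 CPM in the other HPβCD animals and 105 to 159 CPM in vehicle animals. Of 5 neutrophil markers 3 were highest there, with a sum of 34.2 CPM against 7.29 to 12.8 CPM in the other HPβCD animals and 7.15 to 21.9 CPM in vehicle animals. Macrophage markers were highest there in 4 of 6 cases, but at 32541 CPM their sum was close to the 32508 CPM of HPβCD animal 4. B lymphocyte markers (6 genes, 249 CPM there against 138 to 216 CPM in other HPβCD and 193 to 563 CPM in vehicle animals) were highest there in 1 case. None of 6 plasma cell markers and none of 6 germinal centre B lymphocyte markers was highest there, and of the latter *Mef2b* was at 0 in every library. Of 5 neuroblast markers 1 was highest there, of 5 fibroblast markers 1 and of 5 endothelium markers none. Oligodendrocyte precursor markers (6 genes) summed to 501 CPM there, 428 to 449 CPM in the other HPβCD animals and 209 to 348 CPM in vehicle animals, and microglia markers (5 genes) to 1047, 645 to 885 and 457 to 984 CPM, with 1 marker of each list highest there. The precursor sum was mostly *Pdgfra*, at 461 CPM in that infarct. Of the 6 precursor genes 2 had log2 fold changes above 0 and 4 below (*Olig1* -2.07, *Olig2* -1.94, *Sox10* -1.60, *Gpr17* -2.96). Oligodendrocyte, astrocyte and neuron markers also set this infarct apart from the other HPβCD animals, although none of them was highest there among all 8. Oligodendrocyte markers (6 genes) summed to 1930 CPM there against 158 to 926 CPM in the other HPβCD animals and 1518 to 4876 CPM in vehicle animals. Astrocyte markers (6 genes) summed to 2534 CPM against 607 to 1403 CPM and 2192 to 9635 CPM, and the 9 neuron markers to 86.8 CPM against 8.64 to 21.5 CPM and 20.3 to 6076 CPM. No marker of these 3 lists was at 0 in every library. The part of all these cells in the proliferation genes was not tested.

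The wider pathway was read from 5 lists of 113 other genes, of which 102 were tested. None passed in edgeR, where 9 were higher and 3 lower at an unadjusted p under 0.05, while over all genes 11.8% were higher and 16% lower. DESeq2 called 3 of 112 and limma-voom 13 of 102, where 17.5% and 22.1% of all genes were called. The shares of the lists were below those of all genes in each of these counts. Of the 102, 63 had a log2 fold change above 0, with a median of 0.12, and without HPβCD animal 3 there were 48 of 102, with a median of -0.03.

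Among G1 cyclins, their kinases and Cdc25 phosphatases (10 of 11 tested), 5 had a log2 fold change above 0 and 5 below. *Ccne2*, cyclin E2, which starts S phase with Cdk2, measured 6.22, 3.53, 3.27 and 3.82 CPM in vehicle animals and 1.84, 2.08, 1.66 and 2.5 CPM in HPβCD animals. All 4 HPβCD infarcts were below all vehicle infarcts, at a log2 fold change of -1.06 (SE 0.27, adjusted p = 0.0694 in edgeR and 0.0140 in DESeq2), the opposite direction to *Pcna*, *Mcm2* and *Mcm3*. It was the single gene of the 102 whose groups did not overlap, where 8.77% of all genes were higher and 8.03% lower without overlap. *Ccnd2* and *Ccnd3*, D-type cyclins of G1, had log2 fold changes of -0.25 and 0.50, and *Cdk4*, their kinase, had 0.42 (adjusted p = 0.43, 0.129 and 0.137 in edgeR). *Ccnd1*, the other member of that family, was called in edgeR without vehicle animal 3, at -0.58 with an adjusted p of 0.0427. With 8 animals limma-voom called *Ccnd1* and *Ccne2* lower and *Ccnd3* and *Cdk4* higher (adjusted p = 0.0149, 0.0144, 0.0466 and 0.0327). Its background was 22.1% of all genes.

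CDK inhibitors, which hold the cycle back, were above 0 in 5 of 7 cases. *Cdkn1a* (p21) averaged 17.1 ± 3.12 CPM with vehicle and 22.9 ± 4.02 CPM with HPβCD (SD, n = 4 each), with a log2 fold change of 0.42 and an adjusted p of 0.184 in edgeR. *Cdkn1c* (p57) had 0.49 and *Cdkn1b* (p27), the most abundant, had -0.10, neither passing in edgeR. In limma-voom *Cdkn1c* passed, at an adjusted p of 0.0309. Of 17 tested E2F, Rb and DREAM regulators, 12 were above 0 and the median was 0.12. *Tfdp2*, a partner of E2F, and *Lin52*, a DREAM subunit, had -0.35 and -0.32. The pocket proteins *Rb1* and *Rbl2* had -0.09 and 0.10, and none of these 4 passed in edgeR. Limma-voom called *Tfdp2* lower and *E2f1* higher (adjusted p = 0.0177 and 0.0396).

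Other replication genes were above 0 in 14 of 26 cases, with a median of 0.07. *Gmnn* (geminin, which blocks a second round of licensing) averaged 7.08 ± 2.23 CPM with vehicle and 13.0 ± 3.28 CPM with HPβCD (SD, n = 4 each), with a log2 fold change of 0.88 (adjusted p = 0.0983 in edgeR and 0.0334 in DESeq2). *Chaf1b*, a subunit of the histone chaperone CAF-1, had 0.86 (adjusted p = 0.106 in edgeR and 0.0494 in DESeq2). *Orc2*, of the origin recognition complex, and *Dnmt1*, which copies DNA methylation, had 0.14 and 0.42. Other mitosis genes were above 0 in 27 of 42 cases with 8 animals and in 15 of 42 without HPβCD animal 3, where 28 of the 42 had their highest value. *Iqgap3* and *Cks1b* had 0.61 each, *Bub3* of the spindle checkpoint had 0.10 and *Smc4* of condensin had -0.24, and none passed in edgeR.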

How the data were processed

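The authors deposited unnormalized read counts by gene in a separate table for each animal (4 vehicle, 4 HPβCD). Per the labels and methods, stranded polyadenylated libraries were trimmed with Trimmomatic 0.32, aligned to GRCm38 with STAR 2.5.2b and counted with HTSeq; the strand option is not given in the sources used here. Reads aligned to several places were not counted, and 5 summary lines per table (26.6% to 36.6% of reads) were left out. Groups came from the sample labels. Nothing ties the libraries to a sequencing batch.

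Genes were tested with edgeR 4.0.16 in R 4.3.3 (robust quasi-likelihood F test, TMM scaling, filterByExpr by group, no covariate, Benjamini-Hochberg adjustment over 14736 genes, threshold 0.05). Alternatives were DESeq2 (1.42.0 here) and limma-voom (limma 3.58.1) with sample quality weights. Further ones were other scalings, no filter, a replicate block and the omission of each animal. The study also used DESeq2, without stating its version. The procedure was tested on simulated data. CPM are scaled by TMM, with a prior count of 2 on the log2 scale. Gene positions and exon lengths are those of GENCODE M21.

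The members, the pathway and marker lists and their roles were chosen with earlier results of these data known. Values in every animal are given for the 2 most abundant genes of each role, the 4 with the smallest p in edgeR, and *Mki67*, *Top2a* and *Pcna*. Of each pathway list, the 2 genes with the smallest p and the 2 most abundant are named; *Ccnd1* was named after its values were seen. Replicate numbers were not treated as pairs in the main fit. Deviations from group means of animals with the same number correlated at -0.257, 0.244, 0.329 and 0.0975 for numbers 1 to 4. Only the animals numbered 2 were each other's best match. These few correlations cannot decide whether animals were paired or processed together.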

Additional observations from a re-analysis of the deposited data

Results flagged for a closer look

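The search covered 82 groups of 4 animals (log2 CPM of each gene and the scores per animal). In 11 of them the distance of 1 animal from the others passed Dixon's 95% limit. Independent groups would give about 4.1 by chance. These were not independent, since the genes share the same animals and the scores average those genes, so an excess cannot be judged. Over all genes, vehicle animal 3 was the highest of the 8 in 31.7% and the lowest in 27.6%. Of the 11 groups, HPβCD animal 3 was the one apart in 5, vehicle animal 3 in 5 and vehicle animal 4 in 1. Low in vehicle animal 3 were *Mcm2* (log2 CPM 3.44, others 4.01 to 4.10), *Mcm3* (3.11, others 3.83 to 3.97) and *Pcna* (6.17, others 6.32 to 6.33), and *Cdc45* was high there (1.80, others 1.14 to 1.24). High in HPβCD animal 3 were *Ccnb2* (log2 CPM 2.42, others 0.51 to 0.73), *Ube2c* (1.61, others -0.06 to 0.06) and *Top2a* (5.18, others 4.03 to 4.12). *Aurka* was low in vehicle animal 4 (log2 CPM 0.36, others 0.89 to 0.98). The mean centred log2 CPM of the 37 genes was 0.89 in HPβCD animal 3 (others -0.25 to -0.08), and that of the S phase set was 0.54 there (others -0.01 to 0.08) and -0.55 in vehicle animal 3 (others -0.09 to -0.01).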

How the results depend on the processing

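With 4 animals a group, no result of edgeR passed for the 37 genes, and low genes such as *Bub1* rested on as few as 4 counts. Over all genes the median log2 fold change was -0.05 in the fit described, -0.17 in DESeq2 and -0.15 without the filter, both of which covered more genes. *Pcna*, *Mcm2* and *Mcm3* had log2 fold changes above 0 in every setting run, as did *Mcm6*, *Mcm7*, *Gins2*, *Tyms*, *Aurkb* and *Kif23*. The number of the 37 genes called was 2 in DESeq2, 2 in limma-voom, 0 in the other settings with all animals, and 0 to 1 when each animal was left out (*Pcna* without HPβCD animal 4). For the 113 pathway genes it was 3 in DESeq2, 13 in limma-voom, and 0 to 1 when each animal was left out (*Ccnd1* without vehicle animal 3). The median of the 37 genes was -0.00678 in limma-voom, -0.20 without both animals numbered 3 (an alternative chosen after seeing the data, as were leaving out vehicle animals 1 and 3 and thinning the libraries), and -0.0705 to 0.51 when each animal was left out, lowest without HPβCD animal 3. That of the S phase set was 0.0492 without both animals numbered 3. That of the mitosis set was -0.12 in limma-voom, -0.31 without both animals numbered 3, and -0.14 to 0.55 when each animal was left out. The cause of these changes was not tested.

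With the replicate number as a block, none of the 37 genes was called, 29 log2 fold changes were above 0 and 8 below, and over all genes 9 were called, against 287 without the block. That count of 287 was 11 with library totals alone, 0 without vehicle animals 1 or 4 or HPβCD animals 2 or 3, 4 without HPβCD animal 1, 353 without HPβCD animal 4, and 556 and 629 without vehicle animals 2 and 3.

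Single genes changed direction as follows, in log2 fold change. In limma-voom: -0.0989 for *Mcm4*, -0.0782 for *Mcm5*, -0.42 for *Cdc6*, -0.00678 for *Rrm1*, -0.0503 for *Tk1*, -0.21 for *Ccna2*, -0.71 for *Ccnb1*, -0.48 for *Plk1*, -0.38 for *Birc5*, -0.35 for *Cenpe*, -0.25 for *Cenpf*, -0.31 for *Cdc20*, -0.11 for *Kif11*, -0.0164 for *Kif20a* and -0.0871 for *Rbl2*. Without both animals numbered 3: -0.20 for *Mcm4*, -0.27 for *Mcm5*, -0.28 for *Cdc6*, -0.0329 for *Rrm1*, -0.0777 for *Rrm2*, -0.0962 for *Tk1*, -0.21 for *Cdk1*, -0.35 for *Ccna2*, -0.74 for *Ccnb1*, -0.31 for *Ccnb2*, -0.70 for *Plk1*, -1.04 for *Birc5*, -0.38 for *Cenpe*, -0.11 for *Cenpf*, -0.23 for *Cdc20*, -0.31 for *Ube2c*, -0.39 for *Kif11*, -0.28 for *Kif20a*, -0.19 for *Tpx2*, -0.0686 for *Prc1*, -0.22 for *Mki67*, -0.14 for *Top2a* and -0.0603 for *Rbl2*. Without vehicle animals 1 and 3: -0.12 for *Mcm4*, -0.0311 for *Mcm5*, -0.11 for *Cdc6*, -0.0137 for *Rrm1*, -0.19 for *Tk1*, 0.11 for *Aurka*, -0.0826 for *Cenpe* and -0.0482 for *Rbl2*. With library totals alone: -0.0584 for *Mcm4* and -0.00859 for *Mcm5*. With the replicate block: -0.0986 for *Ccnb1*, -0.0243 for *Birc5* and -0.15 for *Cdc20*. Without the filter it was 0.00753 for *Bub1b*, and with thinned libraries 0.0307 for *Bub1b*. Over the omission of each animal in turn, the ranges were -0.11 to 0.16 for *Mcm4*, -0.0928 to 0.21 for *Mcm5*, -0.047 to 0.45 for *Cdc6*, -0.13 to 0.33 for *Cdc45*, -0.0968 to 0.68 for *Cdk1*, -0.0782 to 0.67 for *Ccna2*, -0.51 to 0.47 for *Ccnb1*, -0.11 to 0.87 for *Ccnb2*, -0.50 to 0.55 for *Plk1*, -0.22 to 0.11 for *Aurka*, -0.76 to 0.87 for *Birc5*, -0.50 to 0.12 for *Bub1*, -0.20 to 0.18 for *Bub1b*, -0.27 to 0.43 for *Cenpe*, -0.37 to 0.41 for *Cdc20*, -0.0485 to 0.85 for *Ube2c*, -0.13 to 0.81 for *Kif11*, -0.30 to 0.50 for *Kif20a*, -0.11 to 0.51 for *Tpx2*, -0.32 to 0.0631 for *Nusap1*, -0.0375 to 0.68 for *Prc1*, -0.16 to 0.55 for *Mki67*, -0.26 to 0.0541 for *Cdkn1b* and -0.00642 to 0.19 for *Rbl2*.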
